A study of Mus musculus with 9 samples.

Results

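The 10 transcripts described here encode the repressor and output arm of the circadian clock: the period genes Per1, Per2 and Per3, the cryptochromes Cry1 and Cry2, the nuclear receptors Nr1d1 and Nr1d2, the transcription factors Dbp and Tef, and the repressor Ciart. They were chosen by symbol, and each symbol matched 1 row, so that 10 of the 21959 genes in the deposited table were members. All 10 passed the filter on low counts. RNA was sequenced from the colon of wild-type mice in 3 groups of 3 libraries. CDs mice received dextran sulfate sodium (DSS), a polymer that injures the colon lining, together with carbon dots made from lotus node charcoal. Model mice received DSS alone, and Blank mice were untreated. The sources used here give no strain, age, sex, dose, or day or hour of collection. Since clock transcripts differ with the time of day, the hour and the treatment cannot be told apart where mice of different groups were sampled at different hours, and this was not tested.

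The mammalian clock is a feedback loop of transcription. The activators CLOCK and BMAL1, the protein of Arntl, bind E-box sequences in the period, cryptochrome, Nr1d1, Nr1d2, Dbp, Tef and Ciart genes. Period and cryptochrome proteins then enter the nucleus and repress the activators, while NR1D1 and NR1D2 (REV-ERB alpha and beta) repress Arntl through ROR response elements. DBP and TEF activate genes through D-box sequences. In the gut the clock is known to time epithelial cell division, nutrient transport and mucosal defence, and Per1 is also known as a direct target of the glucocorticoid receptor and of cyclic AMP signalling.

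Libraries held 13868864 to 19940300 counted reads. Levels below are in CPM, read counts brought to a common library size by TMM scaling, and a gene is called where the edgeR adjusted p over 14921 genes is under 0.05. All 12 colon epithelium markers had reads in every library. Transcripts of other organs stood out in 5 libraries. Summed pancreatic acinar markers were at 315.6 CPM in CDs 1, 7818 CPM in Model 1 and 65410 CPM in Model 3, with 0 of 10 markers at 0. Elsewhere they were at 23.8 to 209.6 CPM, with 6 to 8 of 10 markers at 0. Pbsn, a prostate gene, had at most 0.237 CPM in the 6 DSS-treated libraries, while Blank 2 reached 894.7 CPM, Blank 3 reached 112.7 CPM and Blank 1 had no read. Calls that did not hold without the 3 pancreatic libraries or without Blank 2 and Blank 3 are named beside the genes concerned; the fit without Blank 2 and Blank 3 keeps 1 Blank library.

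Promoter sequences were at hand for 9 of the 10 members in the RefSeq annotation of GRCm38.p6, and only the 250 bases before each start are considered. An exact E-box (CACGTG, which reads the same on both strands) lay in this window for 4 members, Per1, Cry1, Tef and Ciart, beside 6.02% of 32851 promoters. Members were counted if any of their windows matched, with 11 windows in all, while the shares over all promoters are per promoter. The D-box (TTATGTAA or TTACGTAA, either strand) was found in Per3 alone among these 9 members, beside 0.931% of all promoters. The ROR element core (TAGGTCA, 2.23% of all promoters) and the cyclic AMP element (TGACGTCA, 1.55%) were found in 0 of the 9 members on either strand. No match overlapped another motif. The windows of 4 members are shown to compare the called gene, Per1, with E-box and D-box members that were not called; capitals mark the E-boxes in Per1, Cry1 and Ciart and the D-boxes in Per3.
Per1 upstream, chr11:69098699-69098948 (+ strand): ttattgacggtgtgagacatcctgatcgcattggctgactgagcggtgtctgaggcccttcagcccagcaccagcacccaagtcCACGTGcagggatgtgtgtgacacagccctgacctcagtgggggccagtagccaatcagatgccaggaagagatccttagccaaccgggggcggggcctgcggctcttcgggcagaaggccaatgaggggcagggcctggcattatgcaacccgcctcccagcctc
Cry1 upstream, chr10:85185055-85185304 (- strand): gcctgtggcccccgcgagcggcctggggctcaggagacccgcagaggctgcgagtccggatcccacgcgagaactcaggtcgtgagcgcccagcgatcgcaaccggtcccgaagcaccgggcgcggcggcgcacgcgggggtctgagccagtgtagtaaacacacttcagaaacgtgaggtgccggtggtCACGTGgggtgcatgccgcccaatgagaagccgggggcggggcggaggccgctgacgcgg
Ciart upstream, chr3:95882229-95882478 (- strand): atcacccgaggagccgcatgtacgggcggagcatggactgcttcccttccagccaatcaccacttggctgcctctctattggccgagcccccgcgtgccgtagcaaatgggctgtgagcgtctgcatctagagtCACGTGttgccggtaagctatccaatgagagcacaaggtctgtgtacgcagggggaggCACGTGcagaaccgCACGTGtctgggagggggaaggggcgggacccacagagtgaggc
Per3 upstream, chr4:151044666-151044915 (- strand): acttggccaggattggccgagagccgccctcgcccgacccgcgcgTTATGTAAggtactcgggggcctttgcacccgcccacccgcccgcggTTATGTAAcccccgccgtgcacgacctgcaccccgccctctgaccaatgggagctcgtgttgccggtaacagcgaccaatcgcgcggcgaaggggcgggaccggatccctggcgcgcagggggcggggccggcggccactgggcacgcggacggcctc
Counted back from the base before the start, the E-box began at -166 in Per1 and -60 in Cry1, and at -116, -58 and -44 in Ciart. The 2 D-boxes of Per3 began at -205 and -158. Tef had 1 E-box in each of its 2 windows, and the window at the other Per1 start had none. The bases just after that Per1 start, and after the starts of Cry2 and Nr1d1, were not found in a reference transcript of the gene. The absence of motifs in these windows is therefore less certain. A match describes these letters and is not evidence of binding.

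Per1 rose in DSS-treated colon, and no other member passed the test in any of the 3 comparisons. Per1, a light- and hormone-inducible period gene (ENSMUSG00000020893, chromosome 11, 68986043 to 69000786, plus strand, in the deposited table, which names no build), was at 52.1, 31.5 and 28.3 CPM in CDs 1, 2 and 3. In Model 1, 2 and 3 it was at 60.3, 80.5 and 63.6 CPM, and in Blank 1, 2 and 3 at 12.35, 18.7 and 16.4 CPM. The 3 groups did not overlap: each CDs library lay between the highest Blank and the lowest Model library. On the log2 scale Per1 was higher by 2.11 ± 0.26 in Model versus Blank (SE; edgeR adjusted p = 5.40e-04), a fold of 4.30. CDs versus Blank gave 1.24 ± 0.25 (SE; edgeR adjusted p = 0.00641), a fold of 2.36. Both comparisons share the Blank libraries.

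Of the 10 members 1 was called in Model versus Blank, higher, where 44.1% of all genes were called (24.5% higher and 19.6% lower). In CDs versus Blank 1 member was called, higher, where 35.6% of all genes were called (21.8% higher and 13.8% lower). Their median log2 fold change was 0.13 in Model versus Blank and 0.14 in CDs versus Blank, beside -0.03 and 0.01 over all genes tested. Groups did not overlap for 4 of 10 members in Model versus Blank, beside 61% of all genes, and for 1 of 10 in CDs versus Blank, beside 54.1%. An unadjusted p under 0.05 was found for 3 of 10 members in Model versus Blank, beside 53% of all genes, and for 1 of 10 in CDs versus Blank, beside 47.1%. The share of clock members called was therefore not above the background in either comparison. The count in Model versus Blank was 2 without Blank 2, Blank 3 or CDs 1, which added Ciart without Blank 2, Per2 without Blank 3 and Per3 without CDs 1. It was 3 in a fit of the 6 libraries compared, which added Per3 and Tef, and 2 with the replicate number as a block, which added Tef. Without the 3 libraries with pancreatic transcripts it was 3, adding Per2 (higher) and Nr1d1 (lower), with Model 2 as the lone Model library, assumed to vary like the other groups.

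**Figure D1:**
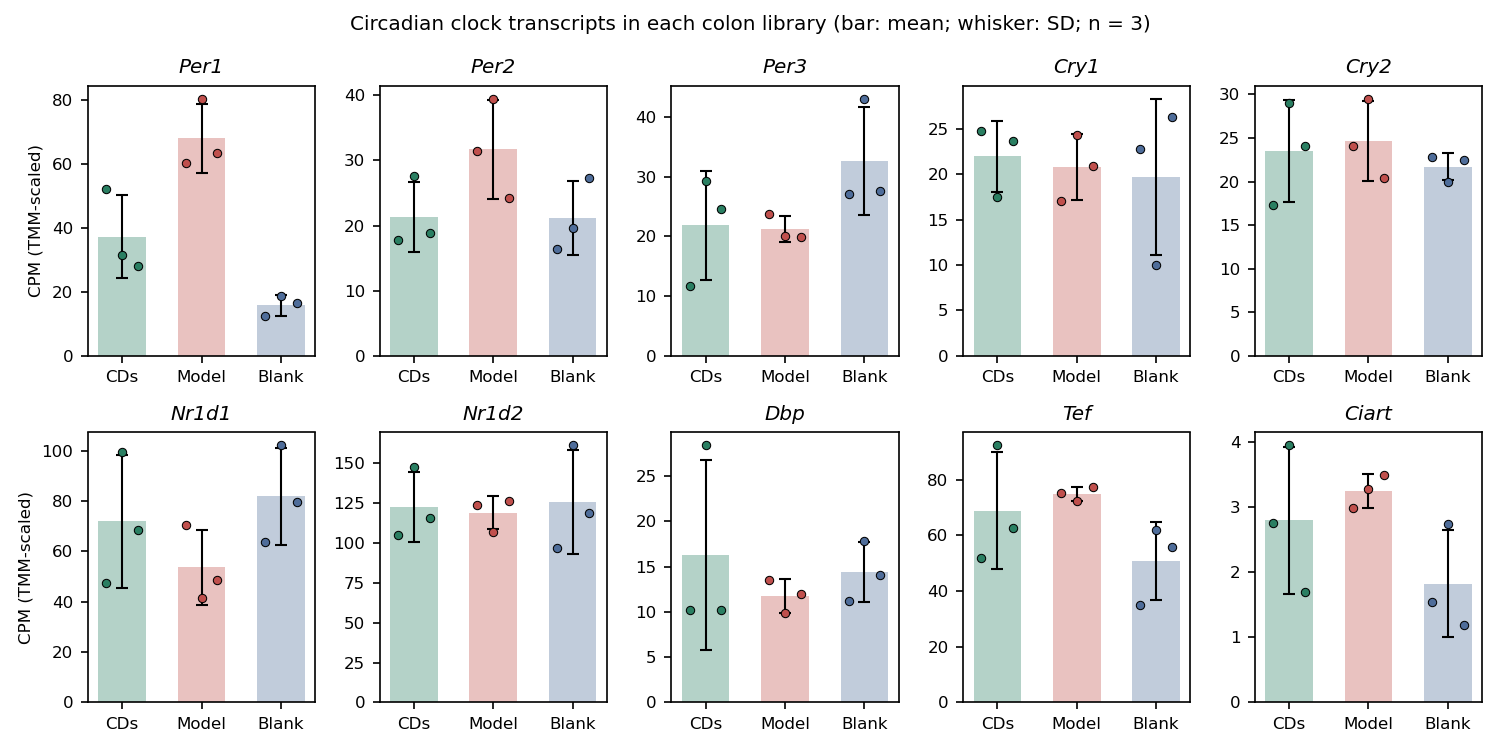
Level of each of the 10 clock transcripts in CPM (vertical axis, each panel from 0) in the 3 CDs, 3 Model and 3 Blank libraries (points, replicates 1 to 3 from left to right), with the group mean (bar) and SD (whisker). Per1 lies at 28.3 to 52.1 CPM in CDs and 60.3 to 80.5 CPM in Model, above all Blank libraries, while the points of the other panels overlap between at least 1 pair of groups.

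The rise of Per1 kept its call in Model versus Blank under each alternative tried, with a log2 fold change of 1.96 to 2.25 when 1 library was left out, 2.34 without the pancreatic libraries and 2.47 without Blank 2 and Blank 3. In CDs versus Blank it was 0.92 to 1.41 when 1 library was left out and 0.92 without the pancreatic libraries, all called. Without Blank 2 and Blank 3 it was 1.60 and no longer called (edgeR adjusted p = 0.0718), with 1 Blank library left. Markers of other cell types moved with it. All 7 fibroblast markers were called higher in both DSS-treated groups, their sum being 5678 to 6622 CPM in CDs, 5336 to 11810 CPM in Model and 1898 to 2186 CPM in Blank. All 9 neutrophil and macrophage markers were called higher in both as well, their sum being 701.7 to 1297 CPM in CDs, 550.7 to 2186 CPM in Model and 102.9 to 130.3 CPM in Blank, where Cxcr2 had 0 reads in Blank 2. Of 12 epithelial markers 3 fell in CDs versus Blank and 5 fell in Model versus Blank, and 0 of 8 smooth muscle markers were called. Of 6 adipocyte markers 1 rose in CDs versus Blank and 4 in Model versus Blank, their sum being 62.4 to 118.6 CPM in CDs, 149.6 to 201.8 CPM in Model and 32.2 to 51.1 CPM in Blank, the same order of groups as for Per1. In bulk tissue fewer cells of a type and less RNA per cell cannot be told apart, and the part of these cell types in the Per1 result was not tested.

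Per1 and Per2, which encode closely related partners of the cryptochromes, did not keep a fixed ratio between groups. Reads of Per1 per read of Per2 numbered 2.94, 1.14 and 1.504 in CDs 1, 2 and 3, and 1.92, 2.04 and 2.62 in Model 1, 2 and 3. In Blank 1, 2 and 3 they numbered 0.753, 0.955 and 0.601. This ratio, chosen after its values were seen, does not depend on how libraries are scaled, and each DSS-treated library lay above each Blank library.

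Per2 (ENSMUSG00000055866, chromosome 1, 91343704 to 91387046, minus strand) was at 17.7, 27.6 and 18.8 CPM in CDs, 31.5, 39.5 and 24.3 CPM in Model and 16.4, 19.6 and 27.4 CPM in Blank. Its Model and Blank libraries overlapped, since Blank 3 lay above Model 3. The log2 fold change was 0.59 ± 0.26 (SE) in Model versus Blank (edgeR adjusted p = 0.0902) and 0.02 ± 0.26 in CDs versus Blank (edgeR adjusted p = 0.961). Per3 (ENSMUSG00000028957, chromosome 4, 151088109 to 151129122, minus strand), the period gene that mice can lack with a nearly normal behavioural rhythm, was at 11.7, 29.2 and 24.6 CPM in CDs, 23.8, 20.03 and 19.91 CPM in Model and 27.1, 43.0 and 27.5 CPM in Blank. Each Model library lay below each Blank library, and the log2 fold change in Model versus Blank was -0.62 ± 0.31 (SE; edgeR adjusted p = 0.139). The 3 period genes thus gave estimates of opposite sign, Per1 and Per2 above 0 and Per3 below 0, with a call for Per1 alone. Per3 lies wholly within the deposited span of Camta1 on the same strand, so its reads could in part be uncertain. The log2 fold change of Camta1 was -0.30 in Model versus Blank (edgeR adjusted p = 0.0621) and -0.58 in CDs versus Blank (0.00614). Per3 had -0.58 ± 0.31 in CDs versus Blank (SE, edgeR adjusted p = 0.178). The part of Camta1 reads in the Per3 values was not tested.

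The cryptochromes, the strongest repressors of CLOCK and BMAL1, showed no difference that passed the test. Cry1 (ENSMUSG00000020038, chromosome 10, 84967564 to 85020928, minus strand) was at 24.8, 17.5 and 23.6 CPM in CDs, 17.1, 24.4 and 20.9 CPM in Model and 22.8, 10.01 and 26.3 CPM in Blank. The lowest value of the 9 was that of Blank 2. The log2 fold change in Model versus Blank was 0.08, with a 95% interval from -0.65 to 0.80, and -0.23 without Blank 2. Cry2 (ENSMUSG00000068742, chromosome 2, 92233991 to 92264388, minus strand) was at 17.3, 29.1 and 24.1 CPM in CDs, 24.0, 29.5 and 20.4 CPM in Model and 22.8, 19.89 and 22.5 CPM in Blank. The groups overlapped, and the 95% interval of its log2 fold change in Model versus Blank ran from -0.28 to 0.64.

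The REV-ERB genes, per gene length the most abundant members, were not called either. Nr1d1 (ENSMUSG00000020889, chromosome 11, 98658758 to 98666159, minus strand), which represses Arntl, was at 47.5, 99.7 and 68.7 CPM in CDs, 70.6, 41.7 and 48.7 CPM in Model and 63.7, 102.2 and 79.8 CPM in Blank. Model 1 lay above Blank 1, so the groups overlapped, and the log2 fold change in Model versus Blank was -0.61 ± 0.30 (SE; edgeR adjusted p = 0.122). Nr1d2 (ENSMUSG00000021775, chromosome 14, 4230569 to 4265642, plus strand), its paralog, was at 104.8, 147.4 and 115.9 CPM in CDs, 123.7, 107.0 and 126.3 CPM in Model and 97.1, 161.2 and 118.7 CPM in Blank. Its groups overlapped, with log2 fold changes of -0.03 in CDs versus Blank and -0.08 in Model versus Blank. The 95% interval in Model versus Blank ran from -0.52 to 0.36. Nr1d1 shares 1075 bases with Thra on the other strand, and the library protocol marks no strand, so reads there are uncertain; Thra itself differed by -0.24 on the log2 scale in Model versus Blank (edgeR adjusted p = 0.315).

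The output genes, led by the D-box activators Dbp and Tef, were not called. Dbp (ENSMUSG00000059824, chromosome 7, 45354512 to 45359627, plus strand), known for one of the widest daily swings of any transcript, was at 10.2, 28.4 and 10.2 CPM in CDs, 13.5, 9.83 and 11.9 CPM in Model and 11.2, 17.8 and 14.1 CPM in Blank. CDs 2 alone set the CDs mean apart: the log2 fold change in CDs versus Blank was 0.18 with it and -0.50 without it. Dbp shares 737 bases with Sphk2 on the other strand, which fell in Model versus Blank (log2 fold change -0.84; edgeR adjusted p = 0.00964). Tef (ENSMUSG00000022389, chromosome 15, 81686622 to 81711064, plus strand) was at 51.7, 92.3 and 62.4 CPM in CDs, 75.3, 72.3 and 77.2 CPM in Model and 34.9, 61.9 and 55.6 CPM in Blank. Each Model library lay above each Blank library, and the log2 fold change was 0.56 ± 0.24 (SE; edgeR adjusted p = 0.0913). Ciart (ENSMUSG00000038550, chromosome 3, 95785815 to 95789563, minus strand), which encodes a repressor that binds BMAL1, was per gene length the least abundant member, with 16 to 69 reads per library. It was at 2.75, 3.95 and 1.69 CPM in CDs, 2.98, 3.28 and 3.49 CPM in Model and 1.54, 2.74 and 1.18 CPM in Blank. Its Model libraries lay above its Blank libraries, by little over Blank 2, and Model versus Blank gave 0.83 ± 0.38 on the log2 scale (SE; edgeR adjusted p = 0.105).

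Compared per gene length, in the FPKM values of the deposited table, Nr1d1 and Nr1d2 led the members in each group. In Blank, Nr1d1 was at 25.8 ± 6.02 FPKM and Nr1d2 at 22.5 ± 5.75 FPKM (SD, n = 3), whose libraries overlapped. Tef followed at 6.26 ± 1.74 FPKM, below every Nr1d2 library. From Tef down through Cry1, Dbp, Per2, Cry2, Per3 and Per1 each neighbour overlapped the next, and Ciart came last at 0.780 ± 0.345 FPKM. Per1 was ninth of 10 in Blank at 2.73 ± 0.554 FPKM. It was at 6.87 ± 2.77 FPKM in CDs, beside 8.90 ± 2.54 FPKM for Tef, and at 12.2 ± 2.49 FPKM in Model, beside 9.58 ± 0.114 FPKM for Tef (SD, n = 3 each).

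In CDs versus Model 0 of 10 members were called by edgeR and 0 by DESeq2, as were 0% of all genes by edgeR. Per1 was the 1 member with an unadjusted p under 0.05, beside 5.28% of all genes, and the 1 member whose groups did not overlap, beside 7.99%. Its log2 fold change was -0.87 ± 0.25 (SE; edgeR adjusted p = 0.891), with a 95% interval from -1.425 to -0.31, which does not allow for the number of genes tested. In the fit without the pancreatic libraries it was -1.42 and called (edgeR adjusted p = 0.0104), where CDs 2 and CDs 3 were set against the single library Model 2. Per2 had a log2 fold change of -0.57 with a 95% interval from -1.15 to 0.01. The other 8 members had log2 fold changes of -0.21 (Ciart) to 0.48 (Dbp). Intervals were narrowest for Nr1d2, from -0.39 to 0.48, and widest for Dbp, from -0.41 to 1.36, so that changes of that size could not be told from none.

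**Figure D2:**
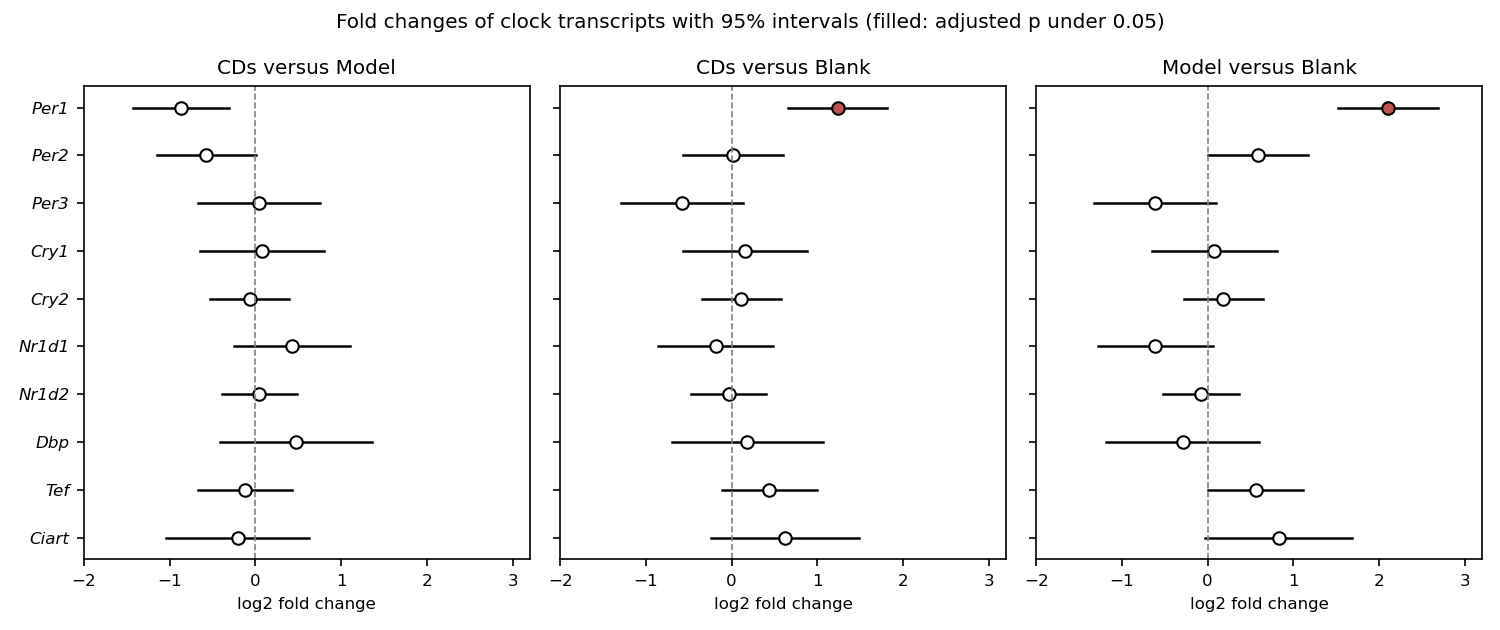
Log2 fold change (horizontal axis) of each clock transcript in CDs versus Model, CDs versus Blank and Model versus Blank, with its 95% interval (line); filled points have an edgeR adjusted p under 0.05. Per1 is the filled point in both comparisons with Blank, at 1.24 and 2.11, and no point is filled in CDs versus Model.

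Within groups, single libraries stood out for many members at once. In CDs 2, 8 of 10 members had the highest value of their group, all but Per1 and Cry1, while in CDs 1, 7 of 10 had the lowest. Blank 2 had the highest value of its group for 7 members, Per1, Per3, Nr1d1, Nr1d2, Dbp, Tef and Ciart, and the lowest for Cry1 and Cry2. Blank 1 had the lowest value for 7 members. In Model the extremes were spread evenly, each library having the highest value for 3 or 4 members. Over all 9 libraries the coefficient of variation of the CPM was 16.8% for Nr1d2, 41.9% for Dbp and 60.2% for Per1, and the highest library exceeded the lowest 6.52-fold for Per1 and 1.66-fold for Nr1d2.

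Relative to the mean of its own group on the log2 scale, Blank 2 was at -0.39 for Arntl, -0.41 for Npas2 and -0.85 for Cry1, and at 0.33 for Dbp, 0.35 for Nr1d1, 0.43 for Per3 and 0.16 for Clock. In CDs 2 Dbp was at 0.98, Nr1d1 at 0.54 and Arntl at -0.26. CDs 3 was at 0.62 for Arntl and 0.78 for Npas2, and at -0.49 for Dbp. Blank 1 was at -0.33 for Dbp and -0.34 for Nr1d1, and at 0.28 for Arntl and 0.45 for Npas2. In Model 2, Model 3 and Blank 3 the signs of Dbp, Nr1d1, Arntl and Npas2 were mixed. CDs 1 and Model 1 did not show these genes on opposite sides. In CDs 1 Dbp (-0.49), Nr1d1 (-0.53), Arntl (-0.36) and Npas2 (-0.69) were all below the group mean. In Model 1 Dbp (0.21), Nr1d1 (0.43), Arntl (0.13) and Npas2 (0.45) were all above it. Reads of Dbp per read of Arntl, a ratio chosen after its values were seen, numbered 0.392, 1.02 and 0.198 in CDs 1, 2 and 3 and 0.398, 0.300 and 0.447 in Model 1, 2 and 3. In Blank 1, 2 and 3 they numbered 0.168, 0.425 and 0.237, so the range within Blank and within CDs was wider than the range within Model. Summed smooth muscle markers were at 2506, 6140 and 6045 CPM in CDs 1, 2 and 3, whose part in the CDs values was not tested. Blank 2 is the library with the highest prostate reads, whose part in its clock values was not tested.

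**Figure D3:**
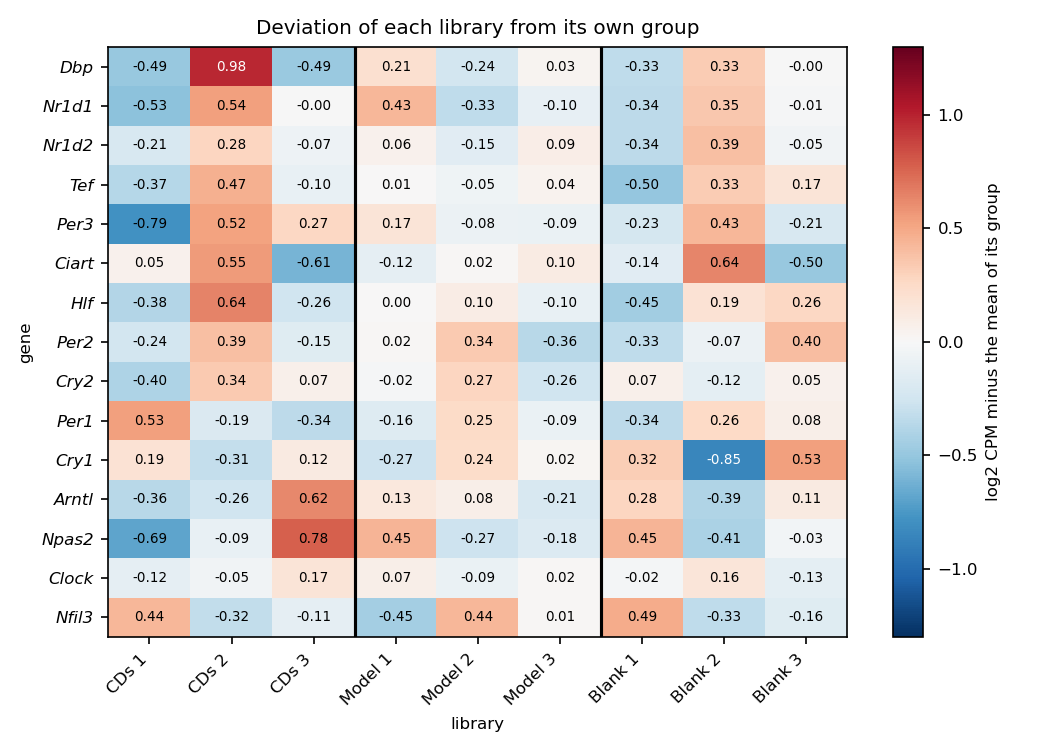
Log2 CPM of each library (columns, CDs, Model and Blank replicates 1 to 3) minus the mean of its own group, for the 10 members and for Hlf, Arntl, Npas2, Clock and Nfil3 (rows); red is above and blue below the group mean. CDs 2 and Blank 2 are above their groups for Dbp, Nr1d1, Nr1d2, Tef, Per3 and Ciart and below them for Cry1, Arntl and Npas2. CDs 1 and Blank 1 are below theirs for Dbp, Nr1d1, Nr1d2, Tef and Per3. Arntl and Npas2 are below the group mean in CDs 1 and above it in Blank 1.

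The genes most like Dbp in this within-group pattern were sought among 14263 genes with a mean of at least 1 CPM. Likeness was the root mean square difference between standardised deviations over the 9 libraries, where 0 is an identical pattern. The nearest were Det1 (0.210), Gatd3a (0.314), Pkn3 (0.331), Jph1 (0.339) and Zfp14 (0.342). Among members and clock lists the nearest were Hlf at rank 50, Tef at rank 79, Nr1d1 at rank 80 and Nr1d2 at rank 142. Per3 was at rank 523, Ciart at rank 588 and Per1 at rank 9202. The 6 listed genes least like Dbp were Arntl at rank 12373, Por at rank 12823, Errfi1 at rank 13018, Cry1 at rank 13401, Nfil3 at rank 13776 and Usp7 at rank 14134 of 14263. With 9 libraries and 3 group means removed, such ranks are a description only.

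Among the activators of the loop and their ROR regulators, 3 of 7 listed genes were called in CDs versus Blank (1 higher, 2 lower), where 35.6% of all genes were called, and 4 of 7 in Model versus Blank (1 higher, 3 lower), beside 44.1%, with a median log2 fold change of -0.40 and -0.65. Clock was at 134.5, 141.7 and 164.4 CPM in CDs, 146.3, 130.7 and 141.1 CPM in Model and 213.7, 242.2 and 198.6 CPM in Blank. Every DSS-treated library lay below every Blank library, and Clock fell by 0.57 ± 0.12 on the log2 scale in CDs versus Blank and by 0.65 ± 0.12 in Model versus Blank (SE; edgeR adjusted p = 0.00631 and 0.00285). Neither call was kept without Blank 2 and Blank 3, with 1 Blank library left and log2 fold changes of -0.54 and -0.61. Arntl was at 26.0, 28.0 and 51.6 CPM in CDs, 33.9, 32.7 and 26.7 CPM in Model and 66.6, 42.0 and 59.4 CPM in Blank. Arntl fell in Model versus Blank (-0.85 ± 0.27 SE, edgeR adjusted p = 0.0334). That call was lost without Blank 1, Blank 3, Model 2 or Model 3, one at a time (edgeR adjusted p = 0.0734 to 0.113). It was also lost without the pancreatic libraries (log2 fold change -0.78) and without Blank 2 and Blank 3 (-1.09). Each of the latter fits left 1 library in a group. In CDs versus Blank Arntl had -0.67 (edgeR adjusted p = 0.0835, DESeq2 adjusted p = 0.0488). Npas2, a paralog of Clock, had -0.40 in CDs versus Blank and -0.99 in Model versus Blank (edgeR adjusted p = 0.426 and 0.0603). In Model versus Blank Npas2 was called by DESeq2 (adjusted p = 0.0276), in the edgeR fit of the 6 libraries compared (0.0242) and without the pancreatic libraries (0.0372). Rora, which activates Arntl where REV-ERBs repress it, rose in both, by 0.85 ± 0.17 in CDs versus Blank and 1.35 ± 0.17 in Model versus Blank (SE; edgeR adjusted p = 0.00639 and 6.73e-04). Rorb fell in both, by 2.01 in CDs versus Blank and 1.28 in Model versus Blank (edgeR adjusted p = 0.00277 and 0.0108), at low levels of at most 0.436 CPM in DSS-treated libraries against 0.9002 to 1.033 CPM in Blank. Without Blank 2 and Blank 3 the calls of Rora (log2 fold change 0.84) and Rorb (-1.88) in CDs versus Blank were lost. Rorb in Model versus Blank was lost in that fit (-1.15) and without the pancreatic libraries (-1.19). Each of these fits left 1 library in a group.

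Nfil3, which encodes a repressor at the same D-boxes that DBP and TEF activate and is also known from immune cells, rose most among the clock transcription factors listed. It was at 36.5, 21.5 and 24.9 CPM in CDs, 32.1, 59.3 and 44.1 CPM in Model and 7.46, 4.18 and 4.72 CPM in Blank. The groups with DSS did not overlap Blank, and the log2 fold change was 2.34 ± 0.32 in CDs versus Blank and 3.05 ± 0.32 in Model versus Blank (SE; edgeR adjusted p = 0.00114 and 3.45e-04). Hlf, the partner of Dbp and Tef in the D-box family, had 0.59 in CDs versus Blank (edgeR adjusted p = 0.140) and rose by 0.95 ± 0.29 in Model versus Blank (SE; edgeR adjusted p = 0.0278). The Hlf call was lost without Blank 1, Blank 2, Model 2 or Model 3, one at a time (edgeR adjusted p = 0.0553 to 0.0866). Klf10, a clock-controlled factor, rose by 0.66 in CDs versus Blank and 0.46 in Model versus Blank (edgeR adjusted p = 0.0063 and 0.0226), the second a call lost in 4 of the 9 fits that left out 1 library. Klf15 had 0.33 in CDs versus Blank (edgeR adjusted p = 0.542) and rose by 2.05 ± 0.40 in Model versus Blank (SE; edgeR adjusted p = 0.00388). Without Blank 2 and Blank 3 the calls of Nfil3 (log2 fold change 1.89) and Klf10 (0.53) in CDs versus Blank were lost. So were those of Klf10 (0.34), Klf15 (2.63) and Hlf (1.45) in Model versus Blank. That fit kept 1 Blank library. Without the pancreatic libraries, with 1 Model library left, Klf10 in Model versus Blank was lost too (0.21). Of these 7 accessory factors 3 were called in CDs versus Blank and 5 in Model versus Blank, all higher. Beside them, 35.6% and 44.1% of all genes were called, and 21.8% and 24.5% of all genes were called higher. In CDs versus Model 0 of the 7 were called.

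Of 13 listed kinases, ubiquitin ligase parts and partners of clock proteins 4 were called in CDs versus Blank (2 higher, 2 lower), beside 35.6% of all genes, and 7 in Model versus Blank (2 higher, 5 lower), beside 44.1%, with median log2 fold changes of -0.19 and -0.25. Csnk1e, a casein kinase that phosphorylates period proteins, rose by 0.60 ± 0.14 in both (SE; edgeR adjusted p = 0.0113 and 0.00916). Prkaa1 and Prkaa2 encode catalytic subunits of AMPK, which marks CRY1 for breakdown. Prkaa1 fell by 0.30 in CDs versus Blank and 0.29 in Model versus Blank (edgeR adjusted p = 0.0223 and 0.0226), each lost in 3 of the 9 fits that left out 1 library. Nampt, an enzyme of NAD synthesis, rose by 0.39 and 0.36 (edgeR adjusted p = 0.0317 and 0.0390), kept in 5 and 4 of those 9 fits. Prkaa2 had -0.72 in CDs versus Blank (edgeR adjusted p = 0.0732; DESeq2 adjusted p = 0.0306; called by edgeR without the pancreatic libraries, 0.0222) and fell by 0.89 ± 0.28 in Model versus Blank (SE; edgeR adjusted p = 0.0306), a call lost in 5 of the 9 fits that left out 1 library. None of the calls of these 4 genes was kept without Blank 2 and Blank 3, with 1 Blank library left. In that fit log2 fold changes in CDs versus Blank and Model versus Blank were 0.53 and 0.53 for Csnk1e. They were -0.33 and -0.31 for Prkaa1 and 0.29 and 0.25 for Nampt, and Prkaa2 had -0.80 in Model versus Blank. Without the pancreatic libraries Nampt was lost in both comparisons (0.32 and 0.22) and Prkaa1 in Model versus Blank (-0.24). That fit left 1 Model library. Of 5 known rhythmic outputs 2 were called in CDs versus Blank (1 higher, 1 lower), beside 35.6% of all genes. In Model versus Blank 3 were called (1 higher, 2 lower), beside 44.1%. Wee1, a mitosis-delaying kinase, fell in both, by 1.13 ± 0.19 in CDs versus Blank and 0.80 ± 0.19 in Model versus Blank (SE; edgeR adjusted p = 0.00274 and 0.00936). Tspan4, a tetraspanin, rose in both, by 2.40 ± 0.29 and 2.90 ± 0.30 (SE; edgeR adjusted p = 7.95e-04 and 3.29e-04). Noct fell in Model versus Blank (-0.72; edgeR adjusted p = 0.0391), which was not called without Blank 2, Blank 3, Model 2, Model 3 or CDs 2. With Blank 1 as the lone Blank library Wee1 was lost in CDs versus Blank (log2 fold change -0.93) and Model versus Blank (-0.595). Noct was lost there in Model versus Blank (-0.40), while Tspan4 was kept in both comparisons. Por and Usp2 were not called.

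Glucocorticoid-responsive genes were listed because Per1 is one of their kind. Of 11 genes, counting the receptor and the converting enzymes, 3 were called in CDs versus Blank (2 higher, 1 lower), beside 35.6% of all genes, and 7 in Model versus Blank (6 higher, 1 lower), beside 44.1%, with a median log2 fold change of 0.01 and 0.98. Zbtb16, a transcription factor strongly induced by glucocorticoids, was at 18.2, 20.2 and 13.2 CPM in CDs, 60.5, 42.5 and 24.2 CPM in Model and 6.24, 9.19 and 5.17 CPM in Blank. The 3 groups did not overlap, in the same order as for Per1. Its log2 fold change was 1.32 ± 0.35 in CDs versus Blank and 2.62 ± 0.36 in Model versus Blank (SE; edgeR adjusted p = 0.0189 and 8.31e-04), the first of which was lost without Blank 1, Blank 3 or CDs 2. Hsd11b1, the enzyme that regenerates active glucocorticoid, rose by 2.08 ± 0.31 and 2.80 ± 0.32 (SE; edgeR adjusted p = 0.00165 and 4.22e-04). Dusp1, a phosphatase of MAP kinases, had 1.48 in CDs versus Blank (edgeR adjusted p = 0.0539; 0.0118 by DESeq2, 0.00782 in the 6 libraries compared and 4.62e-04 without the pancreatic libraries) and rose by 2.46 ± 0.53 in Model versus Blank (SE; edgeR adjusted p = 0.00666). Cdkn1a, a cell cycle inhibitor, fell in both, by 0.69 ± 0.10 and 0.71 ± 0.10 (SE, edgeR adjusted p = 0.00172 and 0.00112). Fkbp5, Tsc22d3, Sgk1, Klf9 and Errfi1 were not called in CDs versus Blank, where Per1 was. Log2 fold changes there were 0.65 for Fkbp5, 0.01 for Tsc22d3, 0.23 for Sgk1, -0.045 for Klf9 and -0.05 for Errfi1. In Model versus Blank Fkbp5, Tsc22d3 and Sgk1 rose, as Per1 did, by 1.37, 0.98 and 1.09 (edgeR adjusted p = 0.0158, 0.0208 and 0.0161). The groups of Fkbp5 overlapped. Klf9 (0.28) and Errfi1 (0.55) were not called there. These genes were not followed in the fits that left out libraries. Without Blank 2 and Blank 3, with 1 Blank library left, the calls of Zbtb16, Hsd11b1 and Cdkn1a in CDs versus Blank were lost. Their log2 fold changes in that fit were 1.46, 2.06 and -0.66. The call of Dusp1 in Model versus Blank was lost there as well (2.30). In CDs versus Model 0 of 11 were called by edgeR, 4 had an unadjusted p under 0.05 beside 5.28% of all genes, and the median was -0.71. Whether Per1 changed together with these genes was not tested.

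**Figure D4:**
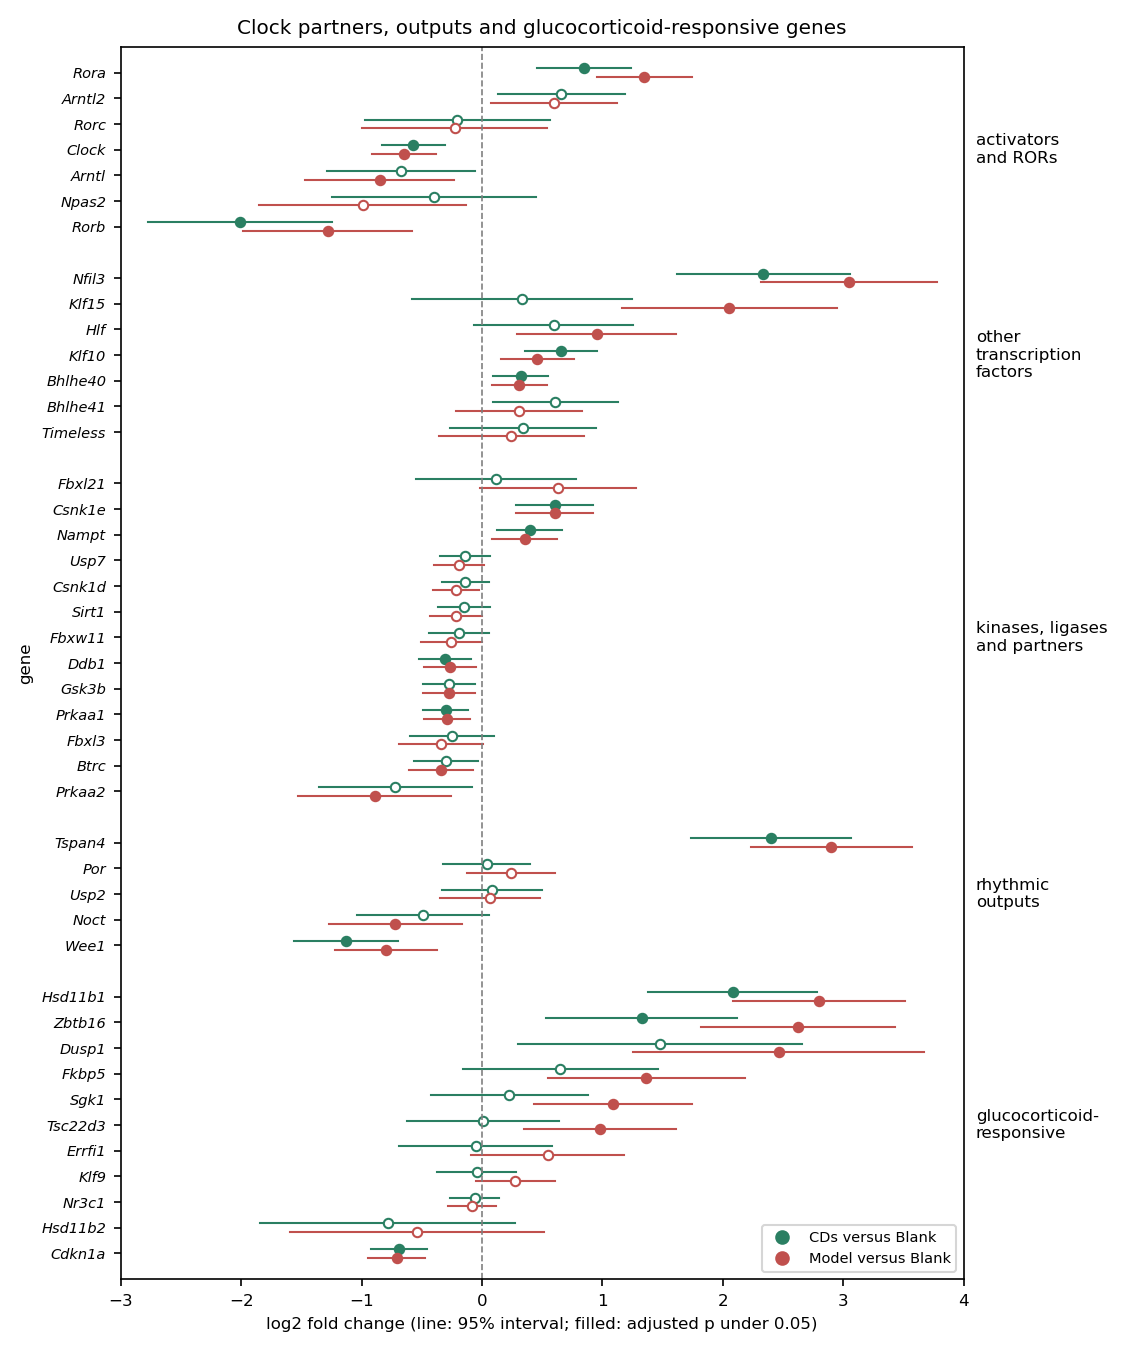
Log2 fold change (horizontal axis, line: 95% interval) of the other 43 listed genes (rows, grouped by list, in descending order of Model versus Blank) in CDs versus Blank (green) and Model versus Blank (red); filled points have an edgeR adjusted p under 0.05. Nfil3, Tspan4 and Hsd11b1 lie above 2 in both comparisons, Clock lies below 0 in both, and Klf15 and Zbtb16 lie further from 0 in Model versus Blank than in CDs versus Blank, a difference that was not called in CDs versus Model.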

How the data were processed

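Read counts and FPKM values per gene for 9 libraries were deposited by the authors, per the file headers, with gene positions and lengths but no genome build. The submitters' processing notes name fastp (0.22.0), HISAT2 (2.1.0) and HTSeq (0.9.1). Per the labels' protocols, poly-A RNA was copied with random primers, with no step that marks the strand. The deposited FPKM equalled count over length and library total for 100% of values (relative tolerance 1e-06) and served only to compare levels between genes.

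The sample titles give group and replicate number, and the series text calls the replicates biological. All 9 libraries entered a single edgeR 4.0.16 quasi-likelihood fit (R 4.3.3) with a mean for each group, TMM scaling and the filter of edgeR on low counts, which left 14921 genes. P-values are two-sided, with Benjamini-Hochberg adjustment over these genes. A standard error (SE) is the log2 fold change over the root of the F statistic, and 95% intervals use its degrees of freedom. Log2 CPM used a prior count of 2. With 3 reads as the limit, a gene without reads may be present at up to 0.142 to 0.221 CPM, for counting error alone.

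The members and gene lists were chosen with earlier results of these data known. All 10 members are named; the other lists give the 4 genes ranked first by p in Model versus Blank, with Arntl, Clock, Npas2, Nfil3 and Hlf, and the 5 genes nearest to Dbp. Usp2, Usp7, Errfi1, Fkbp5, Tsc22d3, Sgk1, Klf9, the genes that overlap members and the ratios within libraries were chosen after their values were seen. Alternatives were RLE size factors, DESeq2 1.42.0, no filter, the 6 libraries compared, the replicate number as a block, each library left out, and the libraries with pancreatic or prostate transcripts left out. Promoters and their coordinates are from RefSeq (GRCm38.p6).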

Additional observations from a re-analysis of the deposited data

How the results depend on the processing

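Calls and directions of all 10 members were the same with RLE size factors, DESeq2 and no filter. Other counts of called members differed. In Model versus Blank 3 members were called in a fit of the 6 libraries compared, 3 without the pancreatic libraries, 2 with the replicate number as a block and 1 to 2 when 1 library was left out. In CDs versus Model 1 was called without the pancreatic libraries, and in CDs versus Blank 0 without Blank 2 and Blank 3. The cause was not tested. Counts over all genes moved too: 39 were called in CDs versus Model by DESeq2 and 1241 without the pancreatic libraries; without Blank 2 and Blank 3, 465 were called in CDs versus Blank and 1536 in Model versus Blank, with fewer samples in the fit. Leaving out 1 library gave 3398 (without Blank 2) to 5540 in CDs versus Blank.

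Signs turned only for log2 fold changes that were not called. With the block they were -0.0047 for Per2 in CDs versus Blank and -0.0413 for Per3 in CDs versus Model. Without the pancreatic libraries they were 0.0411 for Nr1d1 and 0.0668 for Nr1d2 in CDs versus Blank, and -0.25 for Cry1 and 0.10 for Tef in CDs versus Model. Without Blank 2 and Blank 3 they were -0.0525 for Cry1, 0.18 for Nr1d1, 0.34 for Nr1d2 and -0.0149 for Por in CDs versus Blank, and -0.13 for Cry1, 0.30 for Nr1d2 and 0.071 for Dbp in Model versus Blank. With 1 library left out, CDs versus Model ranged from -0.23 to 0.34 for Per3, -0.0455 to 0.22 for Cry1, -0.25 to 0.11 for Cry2, -0.11 to 0.15 for Nr1d2, -0.20 to 0.73 for Dbp, -0.39 to 0.0475 for Tef and -0.54 to 0.0468 for Ciart. CDs versus Blank ranged from -0.21 to 0.25 for Per2, -0.16 to 0.43 for Cry1, -0.0695 to 0.29 for Cry2, -0.50 to 0.0418 for Nr1d1, -0.19 to 0.19 for Nr1d2, -0.50 to 0.43 for Dbp and -0.0899 to 0.16 for Por. Model versus Blank ranged from -0.23 to 0.35 for Cry1 and -0.22 to 0.15 for Nr1d2.

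Replicate numbers gave no clear sign of paired libraries. Of 9 same-numbered pairs 3 had deviations correlated above 0.1. These 9 pairs ranged from -0.368 to 0.206, beside -0.348 to 0.472 for pairs of unlike number in different groups. Of 9 libraries 4 were nearest to their own number. With 3 libraries per group this check is too small to decide on a pairing. In that block fit Tef was called in Model versus Blank (0.61; edgeR adjusted p = 0.0466), and the calls of Prkaa1 in CDs versus Blank (0.0557) and of Arntl (0.0558), Prkaa1 (0.0555), Prkaa2 (0.0653) and Noct (0.0781) in Model versus Blank were lost.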
